A study of Mus musculus with 23 samples.

Results

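Intron peaks are stretches of accessible chromatin that lie between the exons of a gene. They were taken here as every row of the deposited ATAC-seq table whose type the authors gave as intron, which made 15272 of 51412 peaks. The other peaks were 18011 promoter, 14703 intergenic and 3426 exon peaks. ATAC-seq uses a transposase that cuts open DNA, so the reads in a peak measure how accessible it was. The study set type 1 innate lymphoid cells (ILC1s) beside natural killer (NK) cells in mice. The labels give no strain, age or sex for these samples. The 8 ATAC libraries came from 50000 sorted and viably frozen cells each, with 2 libraries per population. The populations were salivary gland ILC1s, liver ILC1s, spleen NK cells and liver NK cells. The sample labels name the sort by a granzyme C reporter with its fate-map mark (GzmC+GzmcFM+) for ILC1s and by an S1pr5-eGFP reporter for NK cells. The design text instead gives surface gates, CD49a+ for ILC1s and CD49b+ without CD49a for NK cells, both within NK1.1+NKp46+ cells, so which gate was used is uncertain. Salivary gland and liver were digested with collagenase and spleen was not. RNA-seq from the same study covered liver cells alone, with 11 ILC1 libraries and 4 libraries of S1pr5eGFP+ NK cells from 6 mice. The ILC1 libraries were 4 with present granzyme C and the mark (DP, GzmC+GzmcFM+), 4 with the mark only (FMSP, GzmC-GzmcFM+) and 3 with neither (DN, GzmC-GzmcFM-).

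Enhancers are DNA elements to which transcription factors bind and from which they act on a gene's start, often over long distances. Many lie in introns, of the gene they act on or of a neighbour, and they differ more between cell types than promoters do. ILC1s and NK cells share the factor T-bet and the capacity to make interferon gamma in the absence of antigen receptors, but ILC1s stay in tissue and NK cells circulate.

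Sequence was at hand only for intron peaks that hold an annotated transcript start, which are shown because they pair accessibility with the letters beneath it. Of the 15228 intron peaks tested, 75 (0.493%) held the whole 300-base window that RefSeq (GRCm38.p6, the mm10 assembly) gives around a gene's start, 250 bases before it and 50 after. In 16 of them the start was of the gene the authors assigned, and in 59 it belonged to another gene inside or beside that intron. At an adjusted p below 0.05 (edgeR, as described further on), 9 of the 75 were called higher and 17 lower in liver ILC1s against liver NK cells (9.83% and 8.85% of all peaks). In both ILC1 populations against both NK populations 17 were higher and 27 lower (21.0% and 23.1% of all peaks). The 5 windows below are given 5′ to 3′ on the strand of their transcript, with matches to the searched motifs in capitals.
Gm33199, chr8:120786737-120787036, plus strand, in a Gm20388 intron peak: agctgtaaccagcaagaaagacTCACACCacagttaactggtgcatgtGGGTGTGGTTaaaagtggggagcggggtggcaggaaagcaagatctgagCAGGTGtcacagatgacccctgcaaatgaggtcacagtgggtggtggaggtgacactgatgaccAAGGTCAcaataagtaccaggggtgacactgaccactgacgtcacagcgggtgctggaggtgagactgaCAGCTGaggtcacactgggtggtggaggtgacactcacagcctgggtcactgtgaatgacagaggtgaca
Gm4814, chr13:93073054-93073353, plus strand, in a Cmya5 intron peak: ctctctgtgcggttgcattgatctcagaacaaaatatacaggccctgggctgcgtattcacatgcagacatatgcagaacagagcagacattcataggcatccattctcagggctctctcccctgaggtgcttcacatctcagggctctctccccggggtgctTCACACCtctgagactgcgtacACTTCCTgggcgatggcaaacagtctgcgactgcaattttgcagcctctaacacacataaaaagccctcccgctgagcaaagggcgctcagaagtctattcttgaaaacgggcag
Gm29887, chr11:34506705-34507004, plus strand, in a Dock2 intron peak: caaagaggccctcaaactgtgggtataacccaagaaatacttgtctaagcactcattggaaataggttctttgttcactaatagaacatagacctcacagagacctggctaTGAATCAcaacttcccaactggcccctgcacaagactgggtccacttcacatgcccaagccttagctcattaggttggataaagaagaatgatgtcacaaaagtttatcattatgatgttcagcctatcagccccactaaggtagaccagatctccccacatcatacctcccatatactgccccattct
Tspan14, chr14:40948160-40948459, minus strand, in a Tspan14 intron peak: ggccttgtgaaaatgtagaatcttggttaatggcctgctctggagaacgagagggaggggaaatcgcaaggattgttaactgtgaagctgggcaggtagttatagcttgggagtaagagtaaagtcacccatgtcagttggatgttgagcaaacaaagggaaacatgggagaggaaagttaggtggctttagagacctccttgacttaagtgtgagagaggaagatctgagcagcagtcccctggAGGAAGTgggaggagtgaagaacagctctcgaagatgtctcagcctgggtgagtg
Rapgef5, chr12:117533678-117533977, plus strand, in a Rapgef5 intron peak: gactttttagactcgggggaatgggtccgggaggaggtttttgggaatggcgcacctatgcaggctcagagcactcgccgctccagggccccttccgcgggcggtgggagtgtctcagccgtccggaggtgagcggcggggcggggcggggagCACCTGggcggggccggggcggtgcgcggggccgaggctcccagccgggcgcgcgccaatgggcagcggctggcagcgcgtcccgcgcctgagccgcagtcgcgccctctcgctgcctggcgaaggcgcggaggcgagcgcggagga

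The motifs searched on both strands were T-box (GGTGTGA), RUNX (TGTGGTT), ETS (AGGAAGT), AP-1 (TGANTCA), TCF/LEF (TCAAAGG), KLF (GGGTGTG), the E-boxes CAGCTG and CACCTG, NR4A (AAGGTCA) and Blimp1/IRF (GAAAGTG). The Gm33199 window held T-box, RUNX, KLF, NR4A and both E-box matches, of which the RUNX and KLF matches overlap. The Gm4814 window held T-box and ETS, the Gm29887 window AP-1, the Tspan14 window ETS and the Rapgef5 window the E-box CACCTG. Of all 32851 RefSeq start windows 3.98% held the T-box letters, 5.27% RUNX, 9.35% ETS, 7.81% AP-1, 4.77% TCF/LEF, 7.95% KLF, 16.3% CAGCTG, 20.2% CACCTG, 4.72% NR4A and 4.81% Blimp1/IRF. In the 75 windows inside intron peaks the shares were 6.67% for T-box, 16% for RUNX, 18.7% for ETS, 18.7% for AP-1, 12% for TCF/LEF, 16% for KLF, 20% for CAGCTG and 21.3% for CACCTG. They were 2.67% each for NR4A and Blimp1/IRF, or 2 windows each. A match says only that the letters are there. Further windows were picked by the rule given below but are not shown. Of these, the windows of Gm26849, in a Myo1e intron peak, and of C330002G04Rik held no match. Those of Gm39044, Gm46952, 1810058I24Rik and Tnrc6b held matches. The Gm26849 peak had the highest log2 fold change of the picked windows, 1.39 for both ILC1 against both NK populations.

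The peak over the Gm4814 start, in an intron of the muscle gene Cmya5, had 3.15 and 2.72 CPM (counts scaled to a common library size) in salivary gland ILC1s, 6.73 and 4.49 in liver ILC1s, 22.0 and 25.9 in spleen NK cells and 17.2 and 23.0 in liver NK cells. All 4 NK libraries lay above all 4 ILC1 libraries, and the log2 fold change was -2.45 for both ILC1 populations against both NK populations (adjusted p = 4.92e-39, edgeR). The peak in Dock2, which encodes a Rac activator of lymphocyte migration, had 19.02 and 19.7 CPM in salivary gland ILC1s, 19.4 and 16.7 in liver ILC1s, 6.88 and 6.84 in spleen NK cells and 8.09 and 7.24 in liver NK cells. Here all ILC1 libraries lay above all NK libraries, with a log2 fold change of 1.36. These windows were picked among the largest changes of both ILC1 against both NK populations. Windows at the starts of their own genes needed only a call within liver, so the sizes of change cannot be compared. The peak of Tspan14, a tetraspanin, had a log2 fold change of 0.51 over both organs, and that of Rapgef5, a Rap exchange factor, one of -0.94. Over both organs means here and below both ILC1 populations (salivary gland and liver) against both NK populations (spleen and liver). Only liver gave both cell types.

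Library totals over all peaks were 16058700 and 26944890 counts in salivary gland ILC1s, 5928045 and 9957335 in liver ILC1s, 14270504 and 11101944 in spleen NK cells and 6390417 and 5609587 in liver NK cells. Intron peaks took 17.7% and 17.5% of these counts in salivary gland ILC1s, 19.3% and 17.8% in liver ILC1s, 15.4% and 16.2% in spleen NK cells and 20.9% and 20.03% in liver NK cells. The share was 18.1% ± 0.848 over the 4 ILC1 libraries and 18.1% ± 2.74 over the 4 NK libraries (SD), a difference of -0.0794 percentage points (exact permutation test, 2-sided, p = 0.943, where 4 against 4 allows no p below 0.0286). In bulk cells, a peak open in more cells and a peak more open in each cell cannot be told apart. The liver libraries had a narrower range of levels. The 90th percentile of intron peak CPM was 22.4 and 28.7 times the 10th in salivary gland ILC1s, 7.0 and 9.30 times in liver ILC1s, 15.4 and 13.3 times in spleen NK cells and 6.15 and 7.79 times in liver NK cells.
The labelled identity was checked on peaks of all types. Cxcr6, a chemokine receptor of resident cells, had 46.4 and 56.8 CPM in salivary gland ILC1s, 53.1 and 60.7 in liver ILC1s, 5.16 and 5.57 in spleen NK cells and 8.88 and 7.72 in liver NK cells. Eomes, an NK cell factor with 1 peak that is not intronic, had 63.5 and 81.2 CPM in salivary gland ILC1s, 27.1 and 25.7 in liver ILC1s, 124 and 112 in spleen NK cells and 64.1 and 76.2 in liver NK cells, so salivary gland ILC1s overlapped liver NK cells in it. Itga1, Zfp683 and Klf2 kept ILC1 and NK libraries apart in the labelled direction, but Il7r, Itga2 and S1pr5 did not. Il7r, an ILC1 marker, had 10.3 and 9.68 CPM in salivary gland ILC1s and 37.2 and 33.9 in liver NK cells. Itga2, an NK marker, had 353 and 356 CPM in salivary gland ILC1s and 274 and 345 in liver NK cells. S1pr5, also an NK marker, had 29.2 and 22.0 CPM in liver ILC1s and 28.2 and 29.9 in liver NK cells. Among peaks of markers of other cells, the summed intron CPM of B cell genes was 60.2 and 56.2 in salivary gland ILC1s, 108 and 88.8 in liver ILC1s, 89.8 and 87.7 in spleen NK cells and 150.1 and 131 in liver NK cells. Unlike the other CPM, these sums use library totals without scaling factors. The factors were 1.128 and 1.030 in liver ILC1s and 0.856 and 0.922 in spleen NK cells, so the order of these populations is not settled.

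Intron peaks spanned a median of 893 bases, from 199 to 3543. Per kilobase their median level was 8.08 CPM, against 17.5 for promoter peaks, 7.86 for intergenic and 8.33 for exon peaks. They were spread over 5518 genes, of which 2647 had a single intron peak and 230 had 10 or more, together 3226 peaks. Of the peaks whose gene matched RefSeq (93.1%), 96.0% lay inside that gene's body. In a principal component analysis of the 8 libraries over intron peaks, the leading axis held 58.2% of the variance and set salivary gland ILC1s (89.8 and 99.9) apart from the other 6 libraries (-50.4 to -10.3). The next axis held 22.5% and ran from liver ILC1s (-49.9 and -35.7) to spleen NK cells (58.2 and 47.6).

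Each intron peak was tested with edgeR's quasi-likelihood test fitted over all 51292 peaks that passed a filter on low counts, with p-values adjusted by Benjamini-Hochberg over all of them. A peak counted as called at an adjusted p below 0.05, and fold changes are log2 values. Of 15272 intron peaks 15228 passed the filter and 44 did not. At least 1 difference among the 4 populations was called for 11678 of the 15228 (76.7%), against 77.4% of all peaks tested and 80.7% of promoter peaks. Among these 11678 the highest mean was in salivary gland ILC1s for 3868 peaks, in liver ILC1s for 2141, in spleen NK cells for 1748 and in liver NK cells for 3921. The p-values measure the spread between these libraries, since the labels do not say which libraries came from the same animals.

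In both ILC1 populations against both NK populations, 7727 of the 15228 intron peaks were called (50.7%), 3568 higher and 4159 lower, against 44.0% of all peaks (21.0% higher and 23.1% lower) and 33.6% of promoter peaks. In liver ILC1s against liver NK cells 2913 were called (19.1%), 1215 higher and 1698 lower, against 18.7% of all peaks (9.83% higher and 8.85% lower). In salivary gland ILC1s against liver ILC1s 7746 were called (50.9%), 3151 higher and 4595 lower, against 48.7% of all peaks (22.8% higher and 25.9% lower). In spleen NK cells against liver NK cells 5044 were called (33.1%), 1230 higher and 3814 lower, against 40.6% of all peaks (20.9% higher and 19.8% lower). Of promoter peaks 18.6% were called within liver, 44.7% in salivary gland against liver ILC1s and 54.0% in spleen against liver NK cells. Intron peaks were thus called more often than promoter peaks in some comparisons and less often between NK cells. The bar chart of calls shows intron peaks beside all peaks in these 4 comparisons. The median intron log2 fold change was -0.04 for both ILC1 against both NK populations, -0.11 within liver, -0.18 for salivary gland against liver ILC1s and -0.33 for spleen against liver NK cells, where that of promoter peaks was 0.38.

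**Figure D1:**
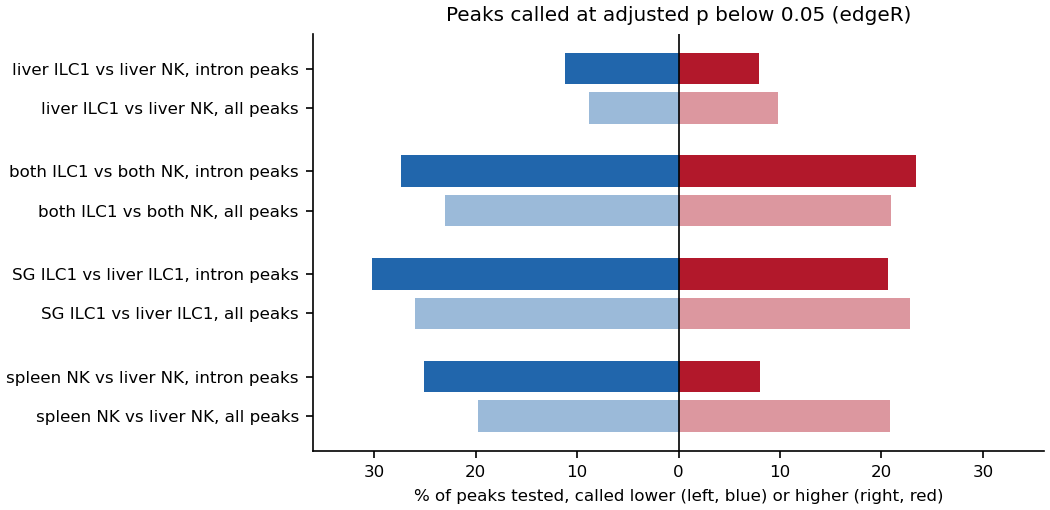
Percentage of peaks tested that were called lower (left) or higher (right) at an adjusted p below 0.05, for intron peaks (dark) and all peaks (pale) in 4 comparisons, with SG for salivary gland and the group named before "vs" as the one that is higher or lower. Intron peaks were called in 50.7% for both ILC1 against both NK populations, against 44.0% of all peaks, and the spleen NK comparison has few higher intron calls.

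The direction of calls varied with the level of the peak, and most in the comparisons between organs. At a mean of 5 CPM or less, 8 of 3866 intron peaks were called higher and 1184 lower in spleen NK cells against liver NK cells, whereas over 20 CPM 942 of 2239 were higher and 63 lower. In salivary gland against liver ILC1s, 215 were higher and 1323 lower at up to 5 CPM, and 1175 were higher and 138 lower over 20 CPM. Liver ILC1s against liver NK cells showed this less, with 50 higher and 185 lower at up to 5 CPM and 458 higher and 370 lower over 20 CPM. The narrower range of levels in the liver libraries, given above, moves with this pattern, and its part in the calls between organs was not tested. The split also depended on scaling: with scaling factors from promoter peaks 169 intron peaks were higher and 7613 lower in spleen against liver NK cells, and with factors from intron peaks 2236 were higher and 2241 lower. Factors from promoter peaks moved the median fold change of all peaks by -0.43 in that comparison, by -0.19 in salivary gland against liver ILC1s, by -0.19 within liver and by -0.07 for both ILC1 against both NK populations, so changes between organs are relative to the scaling chosen.

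**Figure D2:**
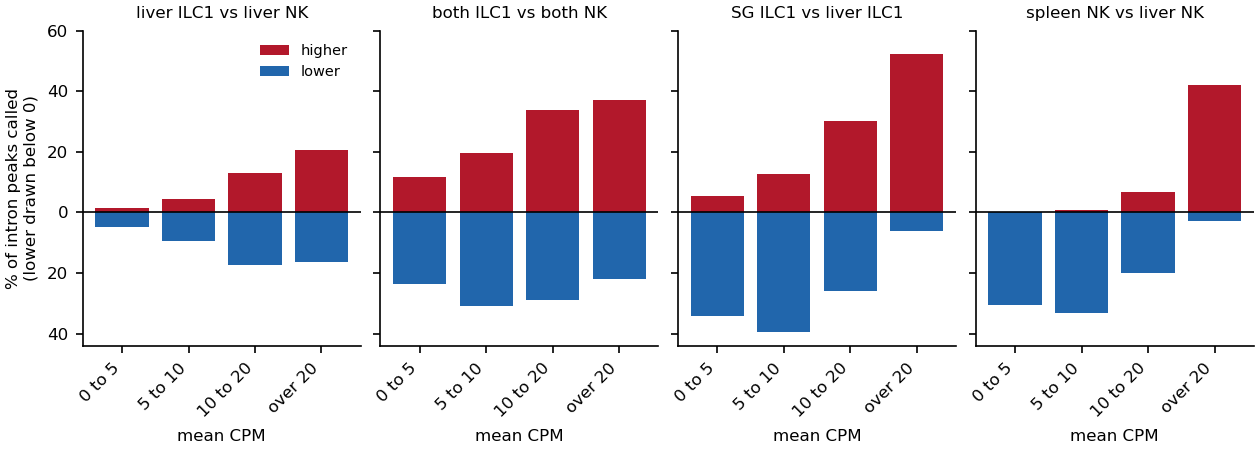
Percentage of intron peaks called higher (above 0) or lower (below 0), by class of mean CPM over the 8 libraries, in 4 comparisons (SG, salivary gland). In spleen NK against liver NK cells, calls at up to 5 CPM were 8 higher and 1184 lower, and over 20 CPM 942 higher and 63 lower, while the comparison within liver changes less across classes.

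Within liver, intron peaks were named for the highest and the lowest fold changes in ILC1s, among those at 5 CPM or more in 1 of the groups and with no overlap between the libraries compared. The peak of Inpp4b, a phosphatase of phosphoinositide lipids, at chr8:81502477-81503602 had 19.1 and 26.1 CPM in salivary gland ILC1s, 14.8 and 13.5 in liver ILC1s, 2.95 and 4.10 in spleen NK cells and 3.00 and 2.73 in liver NK cells. All ILC1 libraries lay above all NK libraries, with a log2 fold change of 2.29 ± 0.31 (SE) within liver (adjusted p = 2.04e-11, edgeR). The peak of Atp8a2, a phospholipid flippase, at chr14:60072237-60073222 had 22.5 and 23.2 CPM in salivary gland ILC1s, 38.3 and 50.8 in liver ILC1s, 8.27 and 7.52 in spleen NK cells and 9.53 and 8.69 in liver NK cells, a change of 2.29 ± 0.22. The Zmat4 peak at chr8:23645664-23646882 had 77.2 and 62.7 CPM in salivary gland ILC1s, 68.2 and 82.1 in liver ILC1s, 15.1 and 14.8 in spleen NK cells and 16.4 and 15.4 in liver NK cells. All ILC1 libraries lay above all NK libraries at this zinc finger gene, with 2.24 ± 0.20 within liver. The peak of Il2ra, the alpha chain of the interleukin 2 receptor, at chr2:11657371-11658088 had 11.4 and 10.7 CPM in salivary gland ILC1s, 10.9 and 17.7 in liver ILC1s, 5.16 and 6.06 in spleen NK cells and 3.65 and 2.25 in liver NK cells. Its change was 2.26 ± 0.32 within liver and smaller outside it, at 0.98, by the test of that difference. The others named in this direction were Wbp1l (2.39), Nsmce1 (2.01), Srsf12 (2.00), Vps13b (1.97), Dtx1 (1.95) and Plekhg6 (1.95), all in log2 units.

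Among the lower intron peaks, that of Syne3, which encodes nesprin-3 of the nuclear envelope, at chr12:104995864-104996615 had 9.31 and 12.1 CPM in salivary gland ILC1s, 4.94 and 4.49 in liver ILC1s, 67.7 and 70.9 in spleen NK cells and 33.0 and 49.1 in liver NK cells, with a log2 fold change of -3.12 ± 0.23 within liver. The Rora peak at chr9:69121051-69121878 had 0.274 and 1.32 CPM in salivary gland ILC1s, 2.69 and 1.95 in liver ILC1s, 22.6 and 24.4 in spleen NK cells and 15.4 and 19.6 in liver NK cells. Rora encodes a nuclear receptor needed for group 2 innate lymphoid cells, and its change was -2.94 ± 0.32 within liver. It was the only one of 18 Rora intron peaks called lower there, of which 4 were higher. Fbxo31 had the lowest value in this comparison, at -3.25 ± 0.29, and other peaks named were Ptp4a3 (-2.90), Abcg1 (-2.89), Dhrs3 (-2.88), Phactr3 (-2.79), Tnfrsf8 (-2.77) and Pald1 (-2.70). Dhrs3 acts on retinal, and Abcg1 exports cholesterol.

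**Figure D3:**
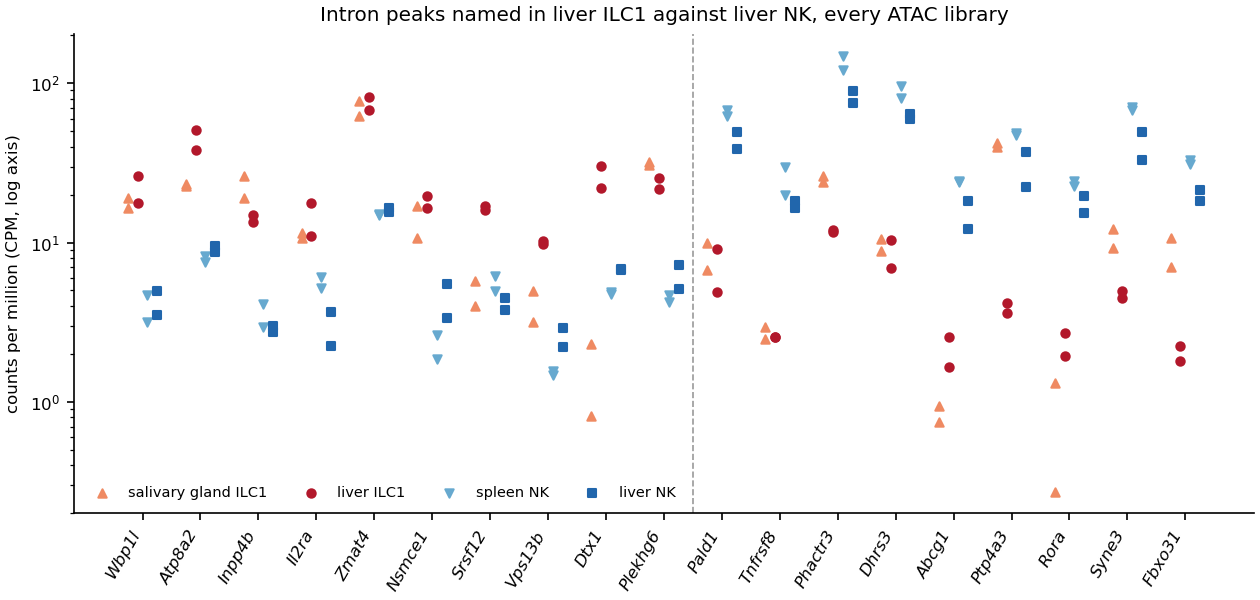
CPM (log axis) of intron peaks named in liver ILC1s against liver NK cells, in each of the 8 ATAC libraries, with peaks higher in liver ILC1s left of the dashed line and lower ones right of it. Dtx1 and Ptp4a3 stand out because salivary gland ILC1s lie away from liver ILC1s, at 0.821 and 2.31 against 21.8 and 30.4 CPM in Dtx1 and at 41.9 and 39.9 against 3.59 and 4.19 CPM in Ptp4a3.

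Over both organs, 9 of the 10 highest ILC1 peaks, all but that of Inpp4b, differed from NK cells more outside the liver than in it by the test of that difference (edgeR). The peak of Pde4a, a cyclic AMP phosphodiesterase, at chr9:21172002-21172948 had 41.6 and 41.7 CPM in salivary gland ILC1s, 11.1 and 10.3 in liver ILC1s, 2.95 and 2.25 in spleen NK cells and 5.74 and 3.06 in liver NK cells, a log2 fold change of 2.62 ± 0.19. The peak of Maff, a small Maf factor, at chr15:79354449-79355192 had 20.8 and 20.3 CPM in salivary gland ILC1s, 10.5 and 10.4 in liver ILC1s, 1.23 and 1.86 in spleen NK cells and 5.61 and 3.70 in liver NK cells, a change of 2.45 ± 0.22. In both, every ILC1 library lay above every NK library. The others were Blm (2.89), Usp37 (2.59), Mnat1 (2.57), Inpp4b (2.49), Hpcal1 (2.48), Ccdc86 (2.45), Cpa3 (2.44) and Galc (2.44). Blm encodes the Bloom helicase, Cpa3 a mast cell carboxypeptidase and Galc a lysosomal galactosidase.

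The lowest peaks over both organs included As3mt, an arsenite methyltransferase, at chr19:46713938-46714748 with 0.274 and 0.247 CPM in salivary gland ILC1s, 2.99 and 2.54 in liver ILC1s, 22.8 and 14.0 in spleen NK cells and 13.7 and 17.4 in liver NK cells. Its log2 fold change was -4.30 ± 0.26 (adjusted p = 3.2e-60, edgeR). The peak of Sgk1, a serum- and glucocorticoid-regulated kinase, at chr10:21946696-21947619 had 2.26 and 1.03 CPM in salivary gland ILC1s, 5.68 and 3.80 in liver ILC1s, 38.3 and 39.8 in spleen NK cells and 22.2 and 26.7 in liver NK cells, a change of -3.53 ± 0.18. In As3mt and Sgk1 alike the NK libraries of both organs lay above every ILC1 library. Abcg1 (-3.83), Rora (-3.82), Sdk2 (-3.46), Chst11 (-3.29), Eps15l1 (-3.24), Zfp704 (-3.20) and Aven (-3.20) were also among them. Aven is an inhibitor of apoptosis, and Chst11 a chondroitin sulfotransferase.

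Intron peaks of genes known from ILC1 and NK cell biology were read from lists, beside a background over all intron peaks within liver of 1215 higher and 1698 lower of 15228 and a median of -0.11. Over both organs 23.4% of all intron peaks were higher and 27.3% lower, in salivary gland against liver ILC1s 20.7% were higher and 30.2% lower, and in spleen against liver NK cells 8.08% were higher and 25.0% lower. Of 24 intron peaks in 8 conventional NK cell genes, 1 was higher and 10 were lower in liver ILC1s (median -0.30). The peak of Cx3cr1, the fractalkine receptor, at chr9:120039153-120040080 had 1.30 and 1.03 CPM in salivary gland ILC1s, 4.34 and 4.78 in liver ILC1s, 26.4 and 20.6 in spleen NK cells and 16.6 and 18.98 in liver NK cells, which gave -1.95 within liver and -3.15 ± 0.20 over both organs. Peaks of Zeb2 (-1.67), a factor of NK cell maturation, Itgam (-1.51), the integrin CD11b, Gzma (-1.23), granzyme A, and Itga2 (-1.17), the integrin CD49b, were also lower within liver. These are single peaks: over both organs Cx3cr1 had 2 higher and 2 lower of 5 intron peaks, and Zeb2 2 higher and 1 lower of 4. The Gzma call was lost without liver NK replicate 2 (-0.74, adjusted p = 0.0967, edgeR), and another Itgam peak was higher. Of 95 intron peaks in 10 ILC1 genes, 25 were higher and 9 lower within liver (median 0.13, and -0.04 with factors from promoter peaks). The peak of Itga1, the integrin CD49a, at chr13:115096737-115097501 had 33.7 and 29.6 CPM in salivary gland ILC1s, 17.6 and 24.1 in liver ILC1s, 8.51 and 6.54 in spleen NK cells and 5.87 and 5.31 in liver NK cells, with 1.91 ± 0.25 within liver. Itga1 and Itga2 are the genes of CD49a and CD49b, which the design text gives as the gate. Peaks of Asb2 (1.62), a ubiquitin ligase subunit, and Tnfsf10 (1.12), the death ligand TRAIL, were higher as well. Of the 3 Tnfsf10 intron peaks 2 were higher and 1 was lower (-1.41) within liver. Some of these lists were written with knowledge of which genes moved in these data and give no independent evidence of direction.

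Of 27 intron peaks in 9 tissue residency genes, 8 were higher and 1 lower within liver, and 13 were higher and 4 lower over both organs (median 0.61, against -0.04 over all intron peaks). The peak of Itgae, the integrin CD103, at chr11:73093940-73096007 had 75.5 and 83.5 CPM in salivary gland ILC1s, 26.0 and 34.9 in liver ILC1s, 18.6 and 12.7 in spleen NK cells and 19.8 and 18.7 in liver NK cells. It was highest in salivary gland ILC1s, and the change was 1.505 ± 0.14 over both organs and 1.37 for salivary gland against liver ILC1s. The lower peak within liver was of Ahr, the aryl hydrocarbon receptor, at -0.97, a call lost without liver ILC1 replicate 2 (-0.91). Of 18 peaks in 11 NK receptor genes, 5 were higher and 1 lower within liver and 12 were higher and 2 lower over both organs (median 0.59). Peaks of the activating receptor gene Cd226 (1.05) and the inhibitory receptor gene Tigit (1.15) were higher within liver, and that of Havcr2, which encodes TIM-3, was lower (-1.61). Without liver ILC1 replicate 2 the calls of Cd226 (0.61, adjusted p = 0.18) and Tigit (0.53, adjusted p = 0.495) were lost, and that of Tigit was lost without liver NK replicate 1 as well (1.02, adjusted p = 0.0851, edgeR). Tissue egress genes had 1 higher and 5 lower of 18 peaks within liver, with a median of 0.07 that was -0.11 with factors from promoter peaks.

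The TGF-beta pathway, which signals through a receptor pair and SMAD factors and is known to shape salivary gland ILC1s, had 88 intron peaks in 15 genes. Over both organs 40 were higher and 9 lower (median 0.31), within liver 5 were higher and 8 lower (median -0.01), and in salivary gland against liver ILC1s 35 were higher and 9 lower (median 0.37, against -0.18 over all intron peaks). In spleen against liver NK cells 10 were higher and 26 lower, but 14 were higher and 13 lower with factors from intron peaks. Of the receptor gene Tgfbr2, the peak at chr9:116122037-116123784 had 68.6 and 72.5 CPM in salivary gland ILC1s, 29.6 and 36.9 in liver ILC1s, 20.4 and 18.5 in spleen NK cells and 18.01 and 18.8 in liver NK cells. The 4 populations kept this order with liver ILC1s between salivary gland ILC1s and the NK cells, and the change was 1.36 ± 0.14 over both organs. Another Tgfbr2 peak, at chr9:116160137-116161563, was higher by 1.69 in salivary gland against liver ILC1s. Peaks of the feedback genes Ldlrad4 (1.37), Pmepa1 (1.26), Ski (1.22) and Skil (0.96) were higher over both organs, the last not without liver ILC1 replicate 1 (0.74).

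Transcription factor genes held 215 intron peaks in 30 genes, of which 25 were higher and 25 lower within liver (median 0.00) and 49 higher and 52 lower over both organs (median 0.01). With factors from promoter peaks the counts were 13 higher and 37 lower within liver, so this list has no direction that every scaling keeps. Higher peaks within liver were of Gata3 (1.76), Foxo3 (1.38), Ets1 (1.09), Runx3 (0.98) and Tbx21 (0.89), which encodes T-bet. Lower ones were of Runx1 (-1.74), Foxo1 (-1.42), Bach2 (-1.29) and Lef1 (-1.24), of which Lef1 is a mediator of Wnt signalling. These are single peaks: Runx1 had 3 higher and 2 lower of 19 within liver, and Bach2 1 higher and 3 lower of 17. Without liver ILC1 replicate 2 the calls of Runx3 (0.80), Ets1 (0.76) and Lef1 (-1.02) were lost, and without liver NK replicate 1 that of Runx3 (0.81). The Tbx21 peak at chr11:97108825-97110201 had 23.5 and 33.9 CPM in salivary gland ILC1s, 22.6 and 24.9 in liver ILC1s, 14.2 and 16.7 in spleen NK cells and 13.3 and 12.2 in liver NK cells. The ILC1 libraries lay above the NK libraries in it, with 0.90 over both organs. Interleukin 21 receptor (Il21r, 1.94), Stat3 (1.18) and Stat4 (1.18) peaks were higher over both organs. The cytotoxic granule genes had 2 higher and 3 lower of 13 peaks within liver, and the cytokine and receptor genes 5 higher and 4 lower of 22.

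Markers of other cell types had few intron peaks. Within liver, T cell genes had 3 lower of 12, B cell genes 5 lower of 12 (median -0.55), and salivary epithelial genes 1 higher of 6, all in Cdh1. Over both organs B cell genes had 1 higher and 9 lower of 12 (median -0.89), Cdh1 peaks were 4 higher and 1 lower of 6, and the 9 endothelial peaks were 2 higher and 1 lower. The summed CPM of the Cdh1 intron peaks, by library totals without scaling factors, was 124 and 131 in salivary gland ILC1s, 86.5 and 90.8 in liver ILC1s, 26.1 and 32.3 in spleen NK cells and 68.5 and 54.7 in liver NK cells. Cdh1 encodes the adhesion molecule E-cadherin. The part of these markers in the other calls was not tested.

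Salivary gland ILC1s and liver ILC1s, the same cell type by label in different organs, differed by over 4 log2 units at single intron peaks. The peak of Cdk6, a kinase of the G1 phase, at chr5:3487991-3489422 had 99.5 and 101 CPM in salivary gland ILC1s and 8.53 and 7.61 in liver ILC1s, beside 28.2 and 25.3 in spleen NK cells and 29.0 and 31.2 in liver NK cells. The change was 3.65 ± 0.21 (adjusted p = 5.59e-60, edgeR), with the NK libraries between the ILC1 populations. The peak of Klrb1, of the NKR-P1 receptor family, at chr6:128716918-128717937 had 35.2 and 34.0 CPM in salivary gland ILC1s, 4.34 and 3.32 in liver ILC1s, 0.900 and 1.95 in spleen NK cells and 3.13 and 4.18 in liver NK cells. Here salivary gland ILC1s stood above the other 3 populations, with 3.197 ± 0.27 against liver ILC1s. Peaks of Ndufs4 (3.66), a subunit of respiratory complex I, Ski (3.44), Ptp4a3 (3.37) and Fry (3.12) were the others. The lowest were in Dtx1 (-4.54), Fbxw27 (-4.38), Sobp (-4.12), Fndc3b (-4.12), Syt2 (-4.04) and Trappc9 (-3.88). The Dtx1 peak at chr5:120690272-120690882 had 0.274 and 0.535 CPM in salivary gland ILC1s, 11.4 and 9.27 in liver ILC1s, 3.60 and 3.22 in spleen NK cells and 6.92 and 6.76 in liver NK cells. Dtx1 encodes a ubiquitin ligase of the Notch pathway, and both its named peaks were lowest in salivary gland ILC1s.

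Spleen NK cells against liver NK cells gave smaller increases. The peak of Pik3cb, a catalytic subunit of PI3 kinase, at chr9:99122512-99123595 had 85.7 and 75.9 CPM in spleen NK cells and 36.5 and 33.6 in liver NK cells, beside 39.9 and 39.8 in salivary gland ILC1s and 18.8 and 16.97 in liver ILC1s, with a log2 fold change of 1.20 ± 0.19. Wdr70 (1.34), Xpc (1.33), Arhgap4 (1.19), Adamts14 (1.17) and Creb3l1 (1.17) were the other highest. The Xpc call was lost without liver NK replicate 2 (0.92) and without spleen NK replicate 1 (1.09), and likewise with factors from promoter peaks (0.88). Abr (-2.78), Herc1 (-2.77), Itga1 (-2.59), Tcf12 (-2.57), Enah (-2.57) and AU022754 (-2.56) were the lowest. The peak of Tcf12, which encodes an E protein, at chr9:72075849-72076927 had 1.88 and 0.781 CPM in spleen NK cells and 9.01 and 7.24 in liver NK cells, beside 5.27 and 5.76 in salivary gland ILC1s and 6.73 and 4.68 in liver ILC1s. All 6 of the lowest peaks had under 3 CPM in both spleen NK libraries.

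Outside the liver, salivary gland ILC1s were compared with spleen NK cells, which differ in organ as well as in cell type. There 4230 intron peaks were higher and 4208 lower, against 48.2% of all peaks called, 22.0% higher and 26.2% lower. Of the 1215 higher within liver 836 were higher in both (68.8% of the liver calls and 19.8% of the outside calls), and of the 1698 lower 1063 were lower in both (62.6% and 25.3%). Opposite calls were 41 for peaks higher within liver and lower outside, and 189 for the reverse. The difference of the ILC1 against NK changes, outside minus within liver, was called for 5032 intron peaks (33.0%), 2741 positive and 2291 negative, against 30.0% of all peaks, 13.5% positive and 16.6% negative. The Dtx1 peak at chr5:120688193-120689002 had 0.821 and 2.31 CPM in salivary gland ILC1s, 21.8 and 30.4 in liver ILC1s, 4.91 and 4.79 in spleen NK cells and 6.79 and 6.76 in liver NK cells, so that it was 1.95 within liver and -1.53 outside.

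Genes with many intron peaks often held peaks of both directions. Over both organs 3682 genes had a called intron peak, of which 1313 had only higher ones, 1785 only lower ones and 584 both, the last making 36.7% of the 1592 genes with at least 2 called. Within liver the counts were 657 only higher, 956 only lower and 187 both, of 1800. Inpp4b had 37 intron peaks, of which 12 were higher and 4 lower over both organs, beside 50.7% of all intron peaks called, 23.4% higher and 27.3% lower. The higher ones lay 136 to 474 kb from its first intron peak in genome order and the lower ones 518 to 725 kb from it. Bcl2, the survival gene, had 15 higher and 1 lower of 22, and Tgfbr2 had 9 higher of 10, over values of 0.15 to 1.78. Nrxn3, a neurexin gene, had 16 lower of 29 with values from -2.50 to 0.13, the called ones at 201 to 969 kb. Rora had 1 higher and 7 lower of 18, and Fyn, a Src family kinase, 3 higher and 11 lower of 22. Counts of higher and lower peaks were 2 and 20 of 37 in Pde4d, 17 and 4 of 35 in Hivep3, 5 and 10 of 27 in Arhgap26, 4 and 11 of 26 in Arid1b, 2 and 11 of 26 in Hdac9, 17 and 3 of 26 in Snx29 and 4 and 12 of 26 in Wwox. The share called was below that of all intron peaks in Inpp4b, Rora and Hdac9 and above it in the other genes of this paragraph. Peaks of 1 gene share a locus and are not independent. By length of the gene, the share called over both organs was 46.0% under 20 kb (744 peaks) and 53.5% over 200 kb (4335 peaks), with 181 higher and 161 lower in the shortest and 813 higher and 1505 lower in the longest.

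**Figure D4:**
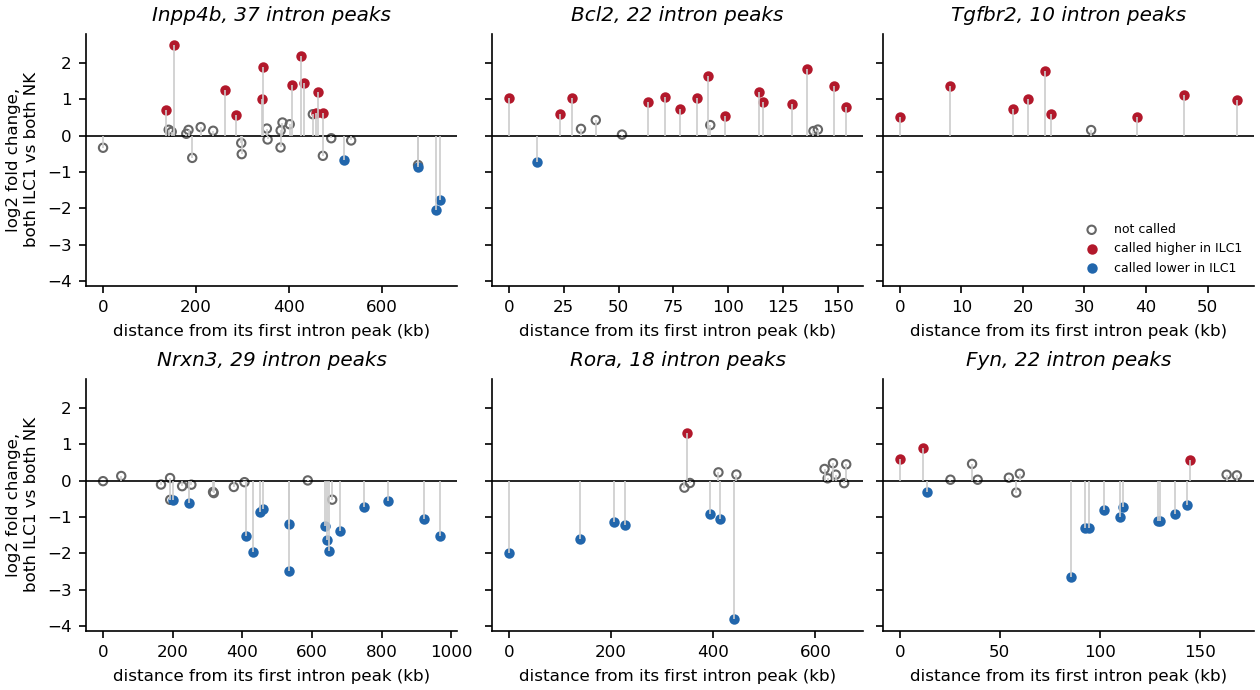
Log2 fold change of both ILC1 against both NK populations for each intron peak of 6 genes, by distance in kb from the gene's first intron peak in genome order, with called peaks filled. Inpp4b changes direction along its length, with its 12 higher peaks before its 4 lower ones, while the called peaks of Tgfbr2 are all higher and those of Nrxn3 all lower.

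The gene with the most intron peaks was Gm20388, a predicted gene of chromosome 8 with 66 intron peaks. Of these, 9 were higher and 25 lower over both organs, beside 23.4% higher and 27.3% lower of all intron peaks. They span chr8:119927446-124086117. Among RefSeq protein-coding genes, which alone were searched, they lay nearest to 25 genes, and 9 lay inside one. This search cannot say whether a peak belongs to Gm20388. Of the 17 nearest to Irf8, which encodes a factor of NK and myeloid cells and spans chr8:120736358-120756694, 1 was higher and 10 were lower over both organs. These 17 are neighbours in 1 locus and are not independent. The peak that holds the Gm33199 start shown above, chr8:120786460-120787707, lies 30.4 kb from the Irf8 body. It had 33.0 and 35.5 CPM in salivary gland ILC1s, 9.72 and 8.58 in liver ILC1s, 123.5 and 106.6 in spleen NK cells and 66.95 and 76.7 in liver NK cells. All NK libraries lay above all ILC1 libraries, with -2.98 ± 0.22 within liver (adjusted p = 1.08e-36, edgeR) and -2.36 ± 0.15 over both organs. In RNA of liver cells, Irf8 had 267 ± 93.2 CPM in 11 ILC1 libraries and 1947 ± 897 CPM in 4 NK libraries (SD), a log2 fold change of -2.85 ± 0.27.

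Intron accessibility was also set against the promoter peaks of the same gene, in 3831 genes with both, as the log2 ratio of summed CPM tested with limma. Within liver the ratio differed for 416 genes (10.9% of those tested), 95 higher and 321 lower in ILC1s (median -0.16), and over both organs for 1453 (37.9%), 692 higher and 761 lower. A scaling factor of a library cancels in this ratio apart from the pseudocount. Subtracting the median over genes, which evens the split by construction, gave 246 higher and 236 lower within liver. Spire1 (2.16 ± 0.45), Ak9 (1.67), Klrb1 (1.63), Tuba8 (1.61) and Sema4b (1.41) had the highest ratios within liver. Sema4b, a semaphorin, was 1.497 at its intron peaks and 0.09 at its promoter. The other named high ratios came with lower promoter values. Spire1 was 0.158 at its intron peaks and -1.999 at its promoter, Tuba8 0.368 and -1.238, and Ak9 0.766 and -0.904. Klrb1 was below 0 at both, with -0.242 at its intron peaks and -1.868 at its promoter. Sdk2 (-2.73 ± 0.36), Agbl3 (-2.19), Padi2 (-2.17), Zbtb2 (-2.07) and Mybpc1 (-1.998) had the lowest, and Mybpc1 was 1.85 at its promoter. Over both organs Cpa3 (2.57), Usp37 (2.16), Ccdc86 (2.14), Trp53inp1 (1.995) and Map3k3 (1.92) were highest and Sdk2 (-2.89), Necap1 (-2.65), Pdzd8 (-2.59), Prkx (-2.56) and Adrb3 (-2.47) lowest. Across the genes, intron and promoter fold changes had a Pearson correlation of 0.416 within liver and 0.433 over both organs, as a description over genes that share libraries.

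RNA of liver ILC1s (mean of the 3 sorted subsets) against liver NK cells was read by the direction of a gene's intron peaks within liver, with 5.92% of all 17124 genes called in RNA, 2.90% higher and 3.02% lower. Of 573 genes with only higher intron peaks, 84 were higher in RNA (14.7%) and 18 lower (3.14%). Of 749 with only lower intron peaks, 14 were higher (1.87%) and 113 lower (15.1%). Of 172 with both, 18 were higher (10.5%) and 12 lower (6.98%), and of 2689 with intron peaks but none called, 83 were higher (3.09%) and 91 lower (3.38%). RNA libraries with the same number come from the same mouse, and with the mouse as a block 12.7% of all genes were called, 5.40% higher and 7.26% lower. Then 150 of the 573 were higher (26.2%) and 38 lower (6.63%), and 28 of the 749 were higher (3.74%) and 152 lower (20.3%). Of the 172 with both, 31 were higher and 23 lower, and of the 2689 with none called, 174 were higher and 210 lower. Genes called in RNA the same way as their intron peaks were 302 with this block and 197 without it, and those called the opposite way 66 with it and 32 without it. Most genes with a called intron peak were not called in RNA in either fit. The ATAC and RNA libraries are different samples, and their gates may differ.

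**Figure D5:**
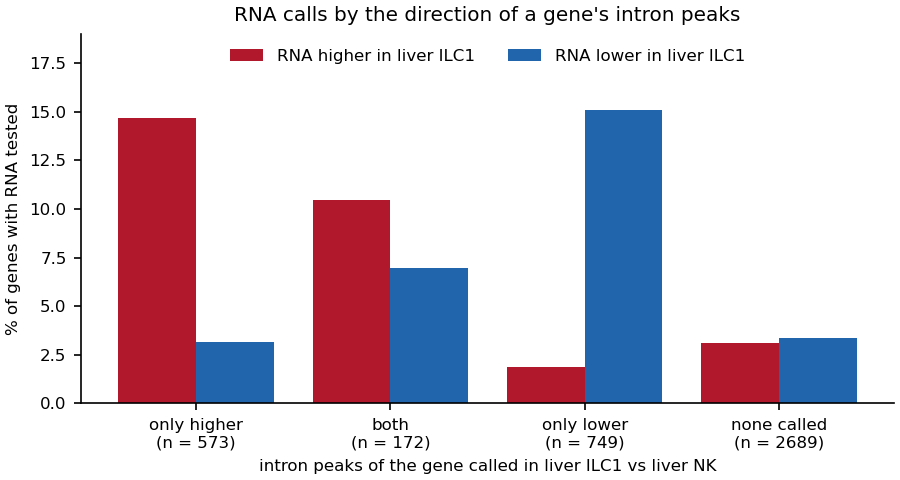
Percentage of genes whose RNA was called higher or lower in liver ILC1s against liver NK cells, without the mouse as a block, by whether the gene's intron peaks were called only higher, in both directions, only lower or not at all within liver (n, genes with RNA tested). Genes with only higher intron peaks were higher in RNA in 14.7% and lower in 3.14%, and those with only lower peaks were higher in 1.87% and lower in 15.1%.

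Among genes with named intron peaks, Inpp4b RNA was 294 ± 130.0 CPM in ILC1 libraries and 3.15 ± 2.43 in NK libraries (SD, n = 11 and 4), a log2 fold change of 6.51 ± 0.78 (adjusted p = 8.14e-05, edgeR). Atp8a2 RNA was 152 ± 45.7 CPM in ILC1 libraries and 0.171 ± 0.250 in NK libraries, and Zmat4 RNA was 28.6 ± 15.1 CPM in ILC1 libraries and 0.0162 ± 0.0229 in NK libraries. RNA of both was near 0 in NK cells, so no fold is given. Il2ra (3.10 ± 0.68), Dtx1 (3.73 ± 0.35), Asb2 (5.76 ± 0.36) and Itga1 (4.85 ± 1.02) RNA was higher too. Phactr3 (-5.91 ± 0.96), Itgam (-4.50), As3mt (-4.33 ± 0.54), Cx3cr1 (-3.97 ± 0.40), Pald1 (-3.90 ± 0.58), Dhrs3 (-3.28 ± 0.63) and Syne3 (-2.57 ± 0.49) RNA was lower. Fyn RNA was 372 ± 65.5 CPM in ILC1 libraries and 962 ± 61.5 in NK libraries, a change of -1.36 ± 0.14. RNA and intron peaks went opposite ways in Tbx21 (RNA -1.01 ± 0.25, adjusted p = 0.0259, edgeR) and Ahr (RNA 2.97 ± 0.44). They also did in Itga4 (RNA -2.70, adjusted p = 0.0106, edgeR). Of its 3 intron peaks 1 was higher within liver and 2 over both organs, with none lower. RNA was not called for Tgfbr2 (0.04 ± 0.23, adjusted p = 0.971), Fbxo31 (-0.11, adjusted p = 0.927) or Abcg1 (0.23, adjusted p = 0.69), with the mouse as a block or without it. For Bcl2 (0.81, adjusted p = 0.425), Rora (1.98, adjusted p = 0.0619) and Wbp1l (-0.75, adjusted p = 0.323) the call depended on the block. With it RNA was higher for Bcl2 (0.88, adjusted p = 6.25e-05) and Rora (2.06, adjusted p = 0.00134) and lower for Wbp1l (-0.9998, adjusted p = 0.00396, edgeR). The named peaks within liver were lower in Rora and higher in Wbp1l.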

How the data were processed

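ATAC-seq was measured in 8 libraries of 4 sorted populations and RNA-seq in 15 libraries of liver cells. The deposited ATAC values are the authors' whole-number read counts per peak in 1 shared peak set, and the same table assigns every peak a type and most a gene. The deposited RNA values are the authors' expected counts per gene, rounded to whole numbers for the tests. Per the submitters' processing notes, Bowtie2, SAMtools, MACS2, Salmon 1.6 and DESeq2 were used with the build mm10. How a peak was typed as intron and given its gene is not given in the sources used here.

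Counts were tested with edgeR 4.0.16 (R 4.3.3, quasi-likelihood, 2-sided) after filterByExpr at a minimum count of 10 and TMM scaling, with 1 mean per group and 4 residual degrees of freedom for ATAC and 11 for RNA. RNA libraries were paired by the mouse number in the labels only in an alternative fit, with the mouse as a block. P-values were Benjamini-Hochberg adjusted over all features of a comparison. CPM use TMM-adjusted library sizes, except the summed CPM of marker genes of other cell types, which use library totals. The intron to promoter ratio was log2 of summed CPM plus 0.5, tested with limma 3.58.1 (trend, robust), and DESeq2 1.42.0 was an alternative. For peaks, the text names 10 per direction in ILC1 against NK comparisons and 6 in organ comparisons, called, at 5 CPM or more and without overlap between the libraries compared, with 1 peak per gene, plus the peak of least p for list genes. A peak named by this rule is not reported here. It also names the 10 genes with the most intron peaks and 5 per direction for the ratio. Bcl2, Fyn and the start windows were chosen after their values were seen. The members, lists and tests were chosen with earlier results of these data known. Scripts were tested on simulated data. Motifs at peak centres were not searched, for want of a genome. The gene names of peaks are those in the deposited table, and gene bodies and start windows are from RefSeq GRCm38.p6.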

Additional observations from a re-analysis of the deposited data

Results flagged for a closer look

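In 1 of the 4 ILC1 libraries, liver ILC1 replicate 1, intron peaks took 19.3% of counts, apart from the other 3 for a group of this size. In RNA, NK mouse 1 stood apart from the other 3 NK libraries with 245 CPM of Syne3, 2141 CPM of Tbx21, 84.3 CPM of Fbxo31 and 70.8 CPM of Abcg1. These were 5 of 31 groups tested, where chance flags about 1 in 20.

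The ILC1 against NK difference outside the liver (salivary gland ILC1s against spleen NK cells) was tested against that within liver with edgeR. A difference between them was called for 25 of 36 named peaks, against 33.0% of all intron peaks. The 36 were picked for large fold changes in the same data, so this count is not a test of them. The difference is given here as outside minus within on the log2 scale. It was positive for 12. The values were 4.46 for Usp37, 3.68 for Mnat1, 2.89 for Ccdc86, 2.74 for Pde4a, 2.66 for Ptp4a3 and 2.60 for Maff. They were 2.37 for Cpa3, 2.19 for Blm, 1.96 for Hpcal1, 1.94 for Galc, 1.37 for Fbxo31 and 0.86 for Plekhg6. It was negative for 13. The values were -3.60 for As3mt, -3.49 for Dtx1, -3.43 for Eps15l1, -2.39 for Chst11, -2.30 for Aven and -2.26 for both Sgk1 and Zfp704. They were -2.18 for Srsf12, -1.89 for Abcg1, -1.79 for Sdk2, -1.76 for Rora, -1.28 for Il2ra and -0.76 for Atp8a2. The organ outside the liver is the salivary gland for ILC1s and the spleen for NK cells, so organ and cell type cannot be told apart in these values.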

How the results depend on the processing

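Between 2 libraries a group, counts of calls depended on single libraries. Leaving out each library in turn gave 1444 to 3155 calls for liver ILC1s against liver NK cells, with 1444 without liver ILC1 replicate 2, 1919 without liver NK replicate 1 and 1863 without its replicate 2. It gave 5849 to 7687 for salivary gland against liver ILC1s and 2178 to 5336 for spleen against liver NK cells, the lowest without liver NK replicate 1 and likewise without spleen NK replicate 1. It gave 6626 to 7556 for both ILC1 against both NK populations, 3800 to 4670 for the difference between organs, 10351 to 11644 for any difference and -0.975 to 0.847 percentage points for the intron share. Where 1 library of a group is left, it is assumed to vary like the others. Intron to promoter ratios ran from 164 to 767 genes within liver, with 767 without liver ILC1 replicate 1, 269 without its replicate 2, 164 without liver NK replicate 1 and 183 without its replicate 2, and from 1058 to 1553 over both organs. Genes with RNA and intron peaks called the same way were 147 to 210 and the opposite way 19 to 45, the lowest without NK mouse 5.

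Requiring a log2 fold change over 1 left 1424 calls within liver, 4896 between ILC1s, 2353 between NK cells and 3311 for both ILC1 against both NK populations. Scaling from promoter peaks gave 7782 calls in spleen against liver NK cells. The ratio on mean log2 CPM gave 183 genes within liver. The share of higher calls within liver was 41.7%, but 22.4% with factors from promoter peaks, 31.7% with library totals and 51.6% with factors from intron peaks. DESeq2 called 2180 intron peaks within liver, 6787 between ILC1s, 3726 between NK cells and 6852 for both ILC1 against both NK populations. Thinned to the smallest library total, the counts gave 2693 calls within liver and 4209 between NK cells. Factors from intron peaks, thinning and centring of the ratio on its median were chosen after seeing the data.

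With the replicate number as a block the calls were 2985 within liver, 7850 between ILC1s, 5135 between NK cells, 7826 for both ILC1 against both NK populations, 5168 for the difference between organs and 11756 for any, and the ratio gave 462 genes within liver and 1533 over both organs. The number was not taken as a pairing, since the labels do not say whether same-numbered ATAC libraries share an animal. Deviations of same-numbered libraries correlated from -0.130 to 0.190. These values cannot decide it, because with 2 libraries per group the deviations within a group mirror each other. In RNA, where a number is a mouse, the mouse as a block gave 302 genes called the same way, against 197 without it, and 66 called the opposite way, against 32, while DESeq2 gave 63.

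Over 111 named peaks and 18 settings, 1945 of 1958 values kept their direction and their call, 13 lost the call and none turned round. Of the 13, 6 came without liver ILC1 replicate 2, among them Runx3 (0.80), Ets1 (0.76), Lef1 (-1.02), Cd226 (0.61), Tigit (0.53) and Ahr (-0.91). The alternative on motif windows was not run.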
